A study of Arabidopsis thaliana with 6 samples.

Results

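The miR156 precursors MIR156a to MIR156f were examined in 6 leaf small RNA libraries of Arabidopsis thaliana, 3 of the wild type (WT) and 3 of the rdr1 mutant. Members were the listed sequences that matched the sense strand of any of these 6 annotated precursors over their full length and without mismatch. They numbered 15 of the 18124 sequences in the table. All plants were untreated and grown with 16 h of daylight at 22 °C, and the sources used here do not give the rdr1 allele, the plant age or whether plants were pooled. The mutated gene, RDR1, encodes an RNA-dependent RNA polymerase, which makes a complementary strand on an RNA template. The normalised signals, called values here, were taken as read counts scaled to 8000000 reads of a library total, although the normalisation is not stated. A single read was then worth between 0.804 and 1.71.

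MiR156 is the miRNA of the juvenile phase in plants. It lowers the mRNAs of SPL genes, which encode transcription factors that promote adult leaf traits and flowering, and its level is known to fall as a shoot ages. Its precursors fold into hairpins that Dicer-like 1 cuts into a short duplex, in which the 5p strand comes from the left side of the hairpin and acts on SPL mRNAs, and the 3p strand is its partner and is usually lost. The 6 precursors carry the same annotated 5p sequence, so most 5p reads cannot be given to a single locus, whereas their 3p strands differ.

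The 5 most informative sequences are shown with bases 2 to 8, the seed, in capitals, in DNA letters as in the table. The first is the annotated 5p of all 6 loci, the next starts 1 nt upstream and is encoded by MIR156d alone, and the others are the most abundant 3p forms of MIR156d and MIR156a.
shared 5p, 20 nt: tGACAGAAgagagtgagcac
MIR156d 5p from 1 nt upstream, 21 nt: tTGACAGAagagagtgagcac
MIR156d 3p, 21 nt: gCTCACTCtctttttgtcata
MIR156d 3p, 24 nt: gCTCACTCtctttttgtcataact
MIR156a 3p, 22 nt: gCTCACTGctctttctgtcaga

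The precursors of the 2 loci with listed 3p sequences are shown whole, because their arms differ in the bases that set the duplex ends. Capitals mark every base covered by a listed sequence. MIR156a (AT2G25095) lies at chr2:10676451-10676573 on the minus strand, and MIR156d (AT5G10945) at chr5:3456632-3456749 on the minus strand (RefSeq, TAIR10.1).
MIR156a: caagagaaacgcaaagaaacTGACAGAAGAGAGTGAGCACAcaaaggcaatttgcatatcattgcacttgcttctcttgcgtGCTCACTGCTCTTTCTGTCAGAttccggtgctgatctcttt
MIR156d: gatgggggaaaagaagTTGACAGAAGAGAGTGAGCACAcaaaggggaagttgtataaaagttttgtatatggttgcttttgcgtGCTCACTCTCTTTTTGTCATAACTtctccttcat

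Library totals inferred from that scaling were between 4668411 and 9955668 reads. The libraries differed in fragment length within genotype. Sequences of 28 to 34 nt held 35.3% of the listed value in WT replicate 1, against a range of 4.87% to 26.2% elsewhere. Sequences of 17 to 19 nt held 35.2% in rdr1 replicate 1, against 5.72% to 18.2% elsewhere. Whether replicate libraries stem from separate plants is not stated in the labels. The p-values weigh the genotype difference against the spread among these libraries, and that spread may be technical. Sequences that match the chloroplast genome, as leaf RNA should hold, made up between 14.7% and 19.5% of the listed value, and the pollen-enriched miR845a and miR845b were not among the listed sequences.

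MIR156b (AT4G30972) lies at chr4:15074899-15075081 on the plus strand, MIR156c (AT4G31877) at chr4:15415418-15415521 on the minus strand, MIR156e (AT5G11977) at chr5:3867207-3867313 and MIR156f (AT5G26147) at chr5:9136106-9136237, both on the plus strand. All 15 sequences lay on the annotated arms of the hairpins. On the 5p arm there were 10 and on the 3p arm 5, and 0 fell in the loops or flanks. There were 0 listed sequences antisense to the 6 precursors. Of the 10 on the 5p arm, 6 matched all 6 loci and 4 matched MIR156d alone. All 5 on the 3p arm belonged to a single locus, 4 to MIR156d and 1 to MIR156a. The annotated 3p sequences of MIR156b, MIR156c and MIR156f were not listed, and MIR156e has no annotated 3p. Each listed sequence reached at least 20.07 in a library, so forms below that in all 6 libraries were not analysed here. The level of MIR156b, MIR156c, MIR156e and MIR156f by themselves can therefore not be read from these values.

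**Figure D1:**
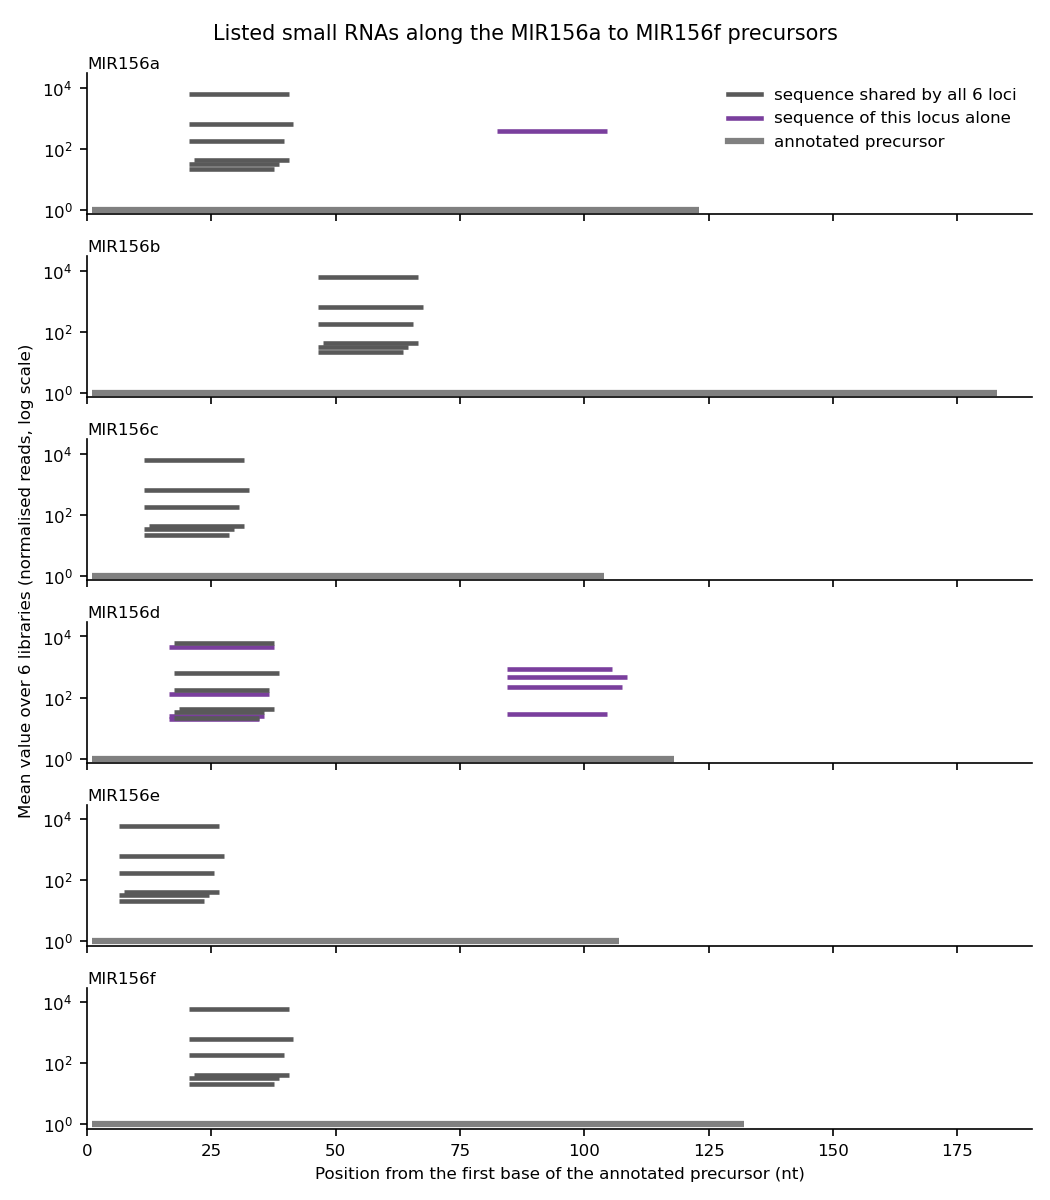
Mean value over the 6 libraries (log scale) of each listed sequence against its position from the first base of each annotated precursor, in nt. Dark bars are the 6 sequences shared by all 6 loci, drawn with their whole value at each locus, and violet bars are sequences of that locus alone. MIR156d carries 8 violet bars, MIR156a carries 1, and the other 4 precursors carry none.

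The shared 20-nt form, which is the annotated miR156a-5p to miR156f-5p, was the most abundant sequence of the 6 hairpins. Its value was 2087, 5558 and 8109.6 in WT replicates 1 to 3 and 9536, 7019 and 5119.8 in rdr1 replicates 1 to 3, from between 1435 and 10092 reads a library. WT replicate 1 was lowest and rdr1 replicate 1 highest, and the genotypes overlapped. The form with 1 more base at the 3′ end (21 nt) had a mean over the 6 libraries of 644, and those shortened by 1, 2 and 3 bases had 181, 32.5 and 21.7. The form that starts 1 nt downstream (19 nt) had 41.7. This last form also matched MIR156g, a relative whose own annotated 5p, which differs from miR156a-5p by T1C counted from the 5′ end, was not listed.

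MIR156d produced a 5p strand that starts 1 nt upstream of the annotated one and was second in abundance to the shared form. The 21-nt sequence had a single match in the genome, at MIR156d. Its value was 1543, 3375 and 6371 in WT replicates 1 to 3 and 5390.2, 5854 and 3679 in rdr1 replicates 1 to 3, so that WT replicate 1 was again lowest and the genotypes overlapped. Its mean over the 6 libraries was 4369, against 6238 for the shared 20-nt form. Forms of 20, 19 and 18 nt with the same start had 126, 24.7 and 19.2. Together the sequences with this start averaged 38.7% of the 5p sum in the 3 WT libraries (SD 3.18) and 38.8% in the 3 of rdr1 (SD 4.45), and lay between 34.1% and 42.98% in every library. At least this share of the 5p strand came from MIR156d, which also encodes the shared forms.

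**Figure D2:**
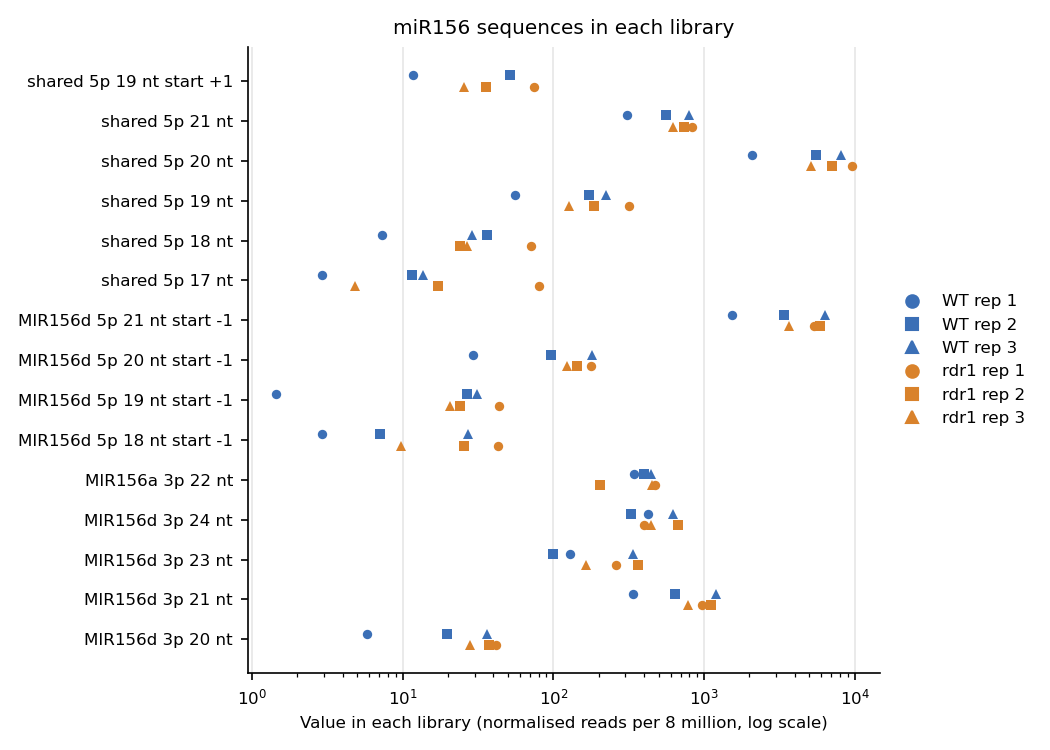
Value of each of the 15 sequences in each library (log scale), WT in blue and rdr1 in orange, with a marker shape for each replicate number. "Start -1" and "start +1" are sequences that begin 1 nt upstream or downstream of the annotated 5p. The shared 20-nt form (2087 to 9536) and the MIR156d 21-nt form (1543 to 6371) lie above all others, and WT and rdr1 libraries overlap in each row.

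The upstream start moves the seed by 1 base. Sequences from the annotated start have the seed GACAGAA, shared by 11 annotated mature sequences of miR156 and miR157d, and the 4 MIR156d sequences have the seed TGACAGA, which in the annotation belongs to miR157a-5p, miR157b-5p and miR157c-5p. The MIR156d 21-nt form and miR157a-5p have the same length and differ by G12T and T15A, counted from the 5′ end of the MIR156d form.
miR157a-5p: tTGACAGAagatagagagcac
In the miR157 5p sum, sequences that begin with TTGACAG, as miR157a-5p does, made up between 92.5% and 95.02% in the 6 libraries. The miR156 share from the corresponding upstream start was lower in 6 of 6 libraries, by 54.7 percentage points ± 3.28 (SD). These shares are unlike, since this start is the annotated one of miR157a-5p, miR157b-5p and miR157c-5p. In miR156 it lies outside the annotation and is encoded by MIR156d alone. This comparison was chosen after the values were seen and is given as a description, with no test. Of 55 miRNA family arms with a mean sum of at least 100, the miR156 5p arm ranked 7 by its share from 5′ starts outside the annotation, at 39.1%, and the median arm had 0%. That median is not an even yardstick, since forms below 20.07 in all 6 libraries were not listed. The miR156 5p arm had 10 listed sequences and a mean sum of 11697.5, whereas some arms at 0%, such as miR170 3p, had 1 listed sequence. Where an arm has more than 1 annotated start, none of them counts as outside, as in the miR157 5p arm, which had 0.21%.

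**Figure D3:**
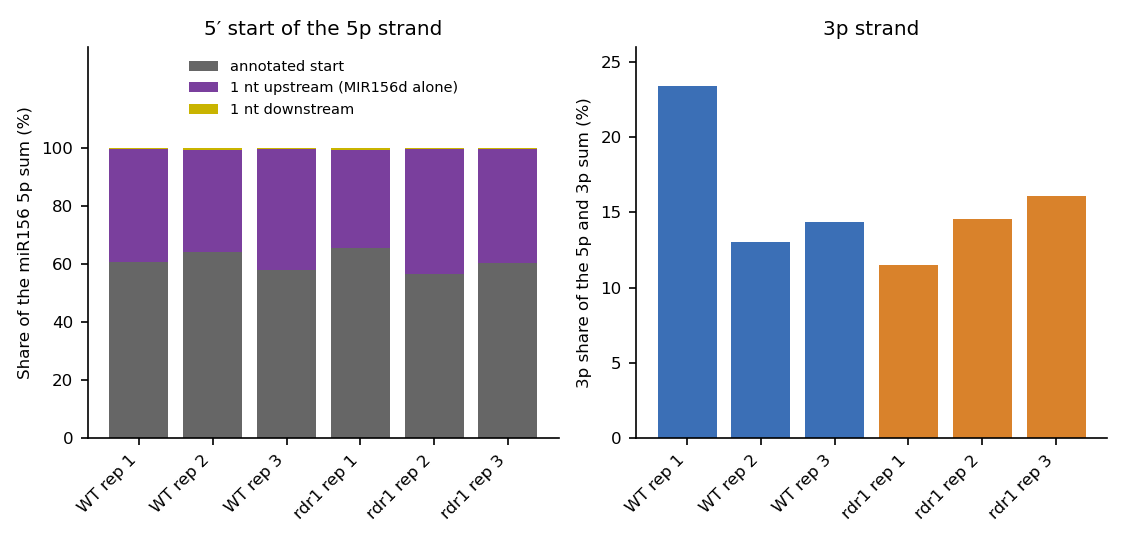
Left, share of the miR156 5p sum (%) by 5′ start in each library: the annotated start, 1 nt upstream and 1 nt downstream. Right, 3p share (%) of the 5p and 3p sum in each library. The upstream start holds between 34.1% and 42.98% in every library, and the 3p share is highest, at 23.4%, in WT replicate 1.

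The 3p strands were less abundant than the 5p strands and came mostly from MIR156d. The most abundant was the MIR156d 21-nt form, with 336, 639.9 and 1205 in WT replicates 1 to 3 and 975, 1116 and 783 in rdr1 replicates 1 to 3. It was lowest in WT replicate 1 and highest in WT replicate 3, and the genotypes overlapped. The 24-nt form had 423, 327 and 626 in WT and 403, 673 and 444 in rdr1. The annotated miR156d-3p of 23 nt had 129, 99.7 and 339.9 in WT and 262, 365 and 165 in rdr1, a lower mean over the 6 libraries (227) than the forms of 21 nt (842) and 24 nt (483), and the 20-nt form had 28.1. MiR156a-3p had 345, 398 and 444 in WT and 472, 204 and 448 in rdr1, with rdr1 replicate 2 lowest. The MIR156d share of the 3p sum averaged 76.2% over WT libraries (SD 6.12) and 81.9% over rdr1 libraries (SD 8.41), a difference with an exact two-sided permutation p of 0.5.

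Of the 4 listed 3p lengths at MIR156d, the 21-nt and 24-nt forms left a 2-nt overhang with the annotated and the upstream 5p start in the predicted fold, and those of 20 and 23 nt did not. In the minimum free energy structure of the precursor (-58.1 kcal per mol, RNAfold), base 18, the annotated 5p start, paired with base 103, and base 17, the upstream start, paired with base 106. The 21-nt 3p form ended at base 105 and the 24-nt form at base 108, so that each extended 2 nt past the partner of a different 5p start. An overhang of that length is what Dicer-like enzymes leave. The annotated 23-nt form ended 1 nt past the partner of the upstream start. The 20-nt form, the least abundant, ended 1 nt past that of the annotated start, and 2 nt past that of the rare start 1 nt downstream. At MIR156a, the annotated 5p start at base 21 paired with base 102, and the 22-nt 3p form ended 2 nt past it, at base 104. These are positions in a computed structure, and the pairing of the strands in the plant was not measured.

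No miR156 sequence passed the test for a difference between rdr1 and WT. All 15 were tested in a limma fit of 18043 sequences, and 0 were called at a Benjamini-Hochberg adjusted p under 0.05, against a background of 0.216% of all sequences (0.2% lower and 0.0166% higher in rdr1). At an unadjusted p under 0.05 there were 0 in limma, against 2.45% of all sequences, and the smallest adjusted p was 0.753. EdgeR and DESeq2 on the recovered reads also called 0 of the 15, against backgrounds of 0.371% in edgeR (0.327% lower, 0.0443% higher) and 0.587% in DESeq2 (0.477% lower, 0.111% higher). At an unadjusted p under 0.05, DESeq2 had 0 of the 15, against 4.78% of all sequences, and edgeR had 1, against 3.35%. With 15 members, these shares would give a count of 0 or 1. The 1 was the shared 17-nt form, whose value was 80.3 in rdr1 replicate 1 but at most 17.1 elsewhere. The genotypes did not overlap for 0 of the 15 sequences, against 5.29% of all sequences. In such whole-leaf RNA, fewer cells that hold a small RNA and less of it per cell cannot be told apart.

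Of the 15, 14 had a higher mean log2 value in rdr1, but the shift of the whole table went the same way. As deposited, the values gave a median log2 fold change of 0.61 over the 15 sequences and 0.47 over all sequences tested. With median of ratios scaling these medians were 0.14 and 0.01, with 12 of the 15 above 0, and with scaling to the sum of all miRNA sequences they were 0.32 and 0.20, with 13 above 0. Most of the 15 are length variants of the same strands, so their directions are not separate observations. The share of all sequences above 0 was not computed, so these counts have no background. The shared 20-nt form had a log2 fold change of 0.62 (SE 0.72, 95% interval -0.80 to 2.04), and the MIR156d 21-nt form 0.60 (SE 0.69, 95% interval -0.76 to 1.96). MiR156a-3p had -0.17 (SE 0.61, 95% interval -1.36 to 1.03), the lowest of the 15. These intervals leave room for changes of over 2-fold in either direction in miR156a-3p and upward in both 5p forms, so the data do not show that the levels were alike.

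**Figure D4:**
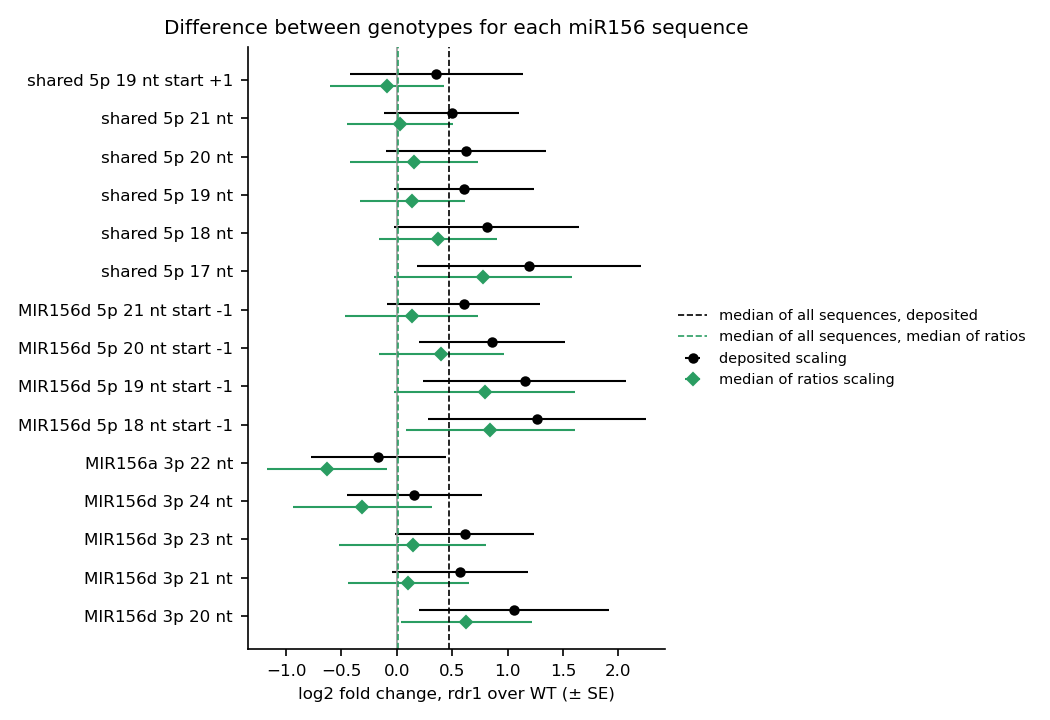
Log2 fold change of rdr1 over WT with its SE for each of the 15 sequences, with the deposited scaling (black) and with median of ratios scaling (green), from limma. Dashed lines are the medians of all sequences tested, 0.47 and 0.01, and the 15 values range from -0.17 to 1.26 with the deposited scaling and from -0.63 to 0.84 with median of ratios scaling.

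Summed by arm, miR156 did not differ between genotypes beyond the spread of the libraries. The 5p sum was 4048, 9899 and 15833 in WT replicates 1 to 3 and 16573, 14070.7 and 9759.8 in rdr1 replicates 1 to 3, and the 3p sum was 1239, 1484 and 2652 in WT and 2153, 2396 and 1867 in rdr1. WT replicate 1 was lowest in both, and the genotypes overlapped. In limma over 75 miRNA family arms, of which 1.33% were called and 2.67% had an unadjusted p under 0.05, the log2 fold change was 0.61 for 5p (SE 0.50, 95% interval -0.37 to 1.59, adjusted p = 0.768) and 0.33 for 3p (SE 0.50, 95% interval -0.65 to 1.31, adjusted p = 0.768). With median of ratios scaling the log2 fold change was 0.14 for 5p and turned to -0.14 for 3p, and with scaling to the miRNA sum it was 0.32 for 5p and 0.035 for 3p. As deposited, the 5p value was 0.07 without WT replicate 1, and -0.10 without WT replicate 1 and rdr1 replicate 1, which have the most long and the most short fragments. As a share of all miRNA sequences, 5p made up 1.43%, 1.81% and 2.13% in WT and 2.83%, 2.14% and 1.78% in rdr1, with WT replicate 1 lowest and rdr1 replicate 1 highest. With median of ratios scaling neither was at an end: the 5p sum was 7813, 7484 and 17678.5 in WT and 9427, 13206 and 11223 in rdr1. The part of fragment length in this was not tested.

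Ratios within a library, which do not depend on its scaling, did not separate the genotypes. The 3p share of the 5p and 3p sum was 23.4%, 13.03% and 14.3% in WT and 11.5%, 14.5% and 16.1% in rdr1 (exact two-sided permutation p = 0.7, n = 3 each). The difference of the means, rdr1 minus WT, was -2.90 percentage points with all libraries and 0.345 without WT replicate 1. The 20-nt share of the 5p sum averaged 53.9% over WT libraries (SD 2.77) and 54.4% over rdr1 libraries (SD 3.90), with an exact p of 0.8. The share from the annotated 5′ start averaged 60.9% in both genotypes (SD 3.08 in WT and 4.35 in rdr1), with an exact p of 1. Within the MIR156d 3p sum, the 21-nt form made up 37.6% in WT replicate 1, below the range of 50.9% to 58.9% elsewhere (exact p = 0.8, n = 3 each). With 3 against 3 no p can fall below 0.1, and after Benjamini-Hochberg adjustment over the 7 exact permutation tests made between genotypes the lowest was 0.933.

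The ratios of miR156 5p to the other miRNAs of the age pathway overlapped between genotypes. Their exact permutation tests could not pass 0.05, since no p below 0.1 is possible with 3 against 3. MiR157 acts on the same SPL mRNAs, and miR172, whose level is known to rise with age, acts on mRNAs of AP2-like repressors of flowering. The log2 ratio of miR156 5p to miR157 5p was -1.75, -1.45 and -1.47 in WT and -1.08, -1.55 and -1.54 in rdr1 (exact two-sided permutation p = 0.6, n = 3 each). Apart from rdr1 replicate 1, which was highest, the rdr1 values lay within the WT range. The log2 ratio of miR156 5p to miR172 3p was -2.36, -1.24 and -1.70 in WT and -0.84, -1.22 and -1.25 in rdr1 (exact p = 0.2, n = 3 each), with a mean difference of 0.66 that was 0.23 without WT replicate 1 and rdr1 replicate 1. Of 19 distinct annotated mature sequences of miR156, miR157 and miR172, 12 were listed, and limma, edgeR and DESeq2 each called 0 of them, against 0.216%, 0.371% and 0.587% of all sequences, and 0 had an unadjusted p under 0.05 in limma, against 2.45%. In 12 sequences such shares amount to a count of about 0. Beside the 3 annotated miR156 sequences, the listed ones were miR157a-5p (the same sequence as miR157b-5p and miR157c-5p), miR157d, miR157a-3p, miR157c-3p, miR172a-3p, miR172c-3p, miR172e-3p, miR172b-5p and miR172d-5p. MiR172a-3p and miR157a-5p were the most abundant of them. Their limma log2 fold changes ranged from -0.26 for miR172e-3p to 1.06 for miR172b-5p, which had 30.5, 36.5 and 98.03 in WT and 151, 118 and 58.2 in rdr1. The genotypes overlapped for all 12, where 5.29% of all sequences did not overlap.

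**Figure D5:**
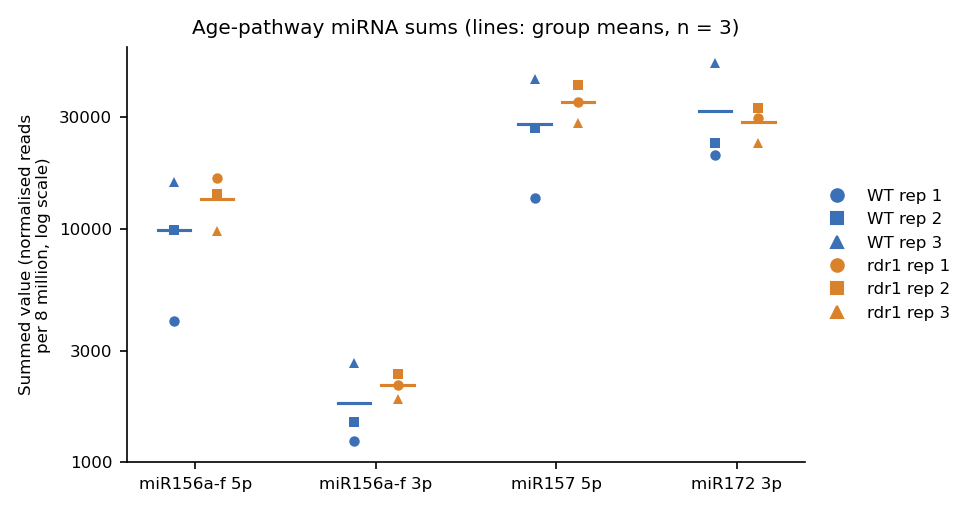
Summed value (log scale) of miR156 5p, miR156 3p, miR157 5p and miR172 3p in each library, WT in blue and rdr1 in orange, with a line at each group mean (n = 3). WT and rdr1 libraries overlap in each sum, and WT replicate 1 is lowest in all 4.

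The sequences that miR156 pairs with in its targets were read from the genome, since the upstream start of MIR156d adds a base that would face the base next to the site. All 11 SPL genes examined (SPL2, SPL3, SPL4, SPL5, SPL6, SPL9, SPL10, SPL11, SPL13A, SPL13B and SPL15) held a site complementary to miR156a-5p with 1 to 3 mismatches, 8 of them in a coding exon and 3 (SPL3, SPL4 and SPL5) in an exon outside the coding part. Capitals mark the bases complementary to miR156a-5p, and the last base is the one that would face the first base of the MIR156d form (TAIR10.1, read on the strand of the gene).
SPL9, coding exon, chr2:17589066-17589085, plus strand, and the next base: GTGCTCtCTCTCTTCTGTCAa
SPL13A, coding exon, chr5:20582738-20582757, minus strand, and the next base: GTGCTCtCTCTCTTCTGTCAt
SPL3, outside the coding part, chr2:14305878-14305897, plus strand, and the next base: tTGCTtACTCTCTTCTGTCAg
The next base was A, complementary to the added T of the MIR156d form, in 5 of the 11 genes. In 10 of the 11 the site did not pair with base 14 of miR156a-5p, the position where miR157d has T14A. MiR157d also has G11T, at a base where the sites shown are complementary to the G of miR156a-5p. The annotated miR156j and miR156i are the reverse complements of the sites in SPL9 and SPL4, at the same coordinates on the opposite strand, and neither was listed. There were 0 listed sequences, sense or antisense, at the 11 SPL genes, so these libraries hold no listed small RNA of the targets themselves.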

How the data were processed

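Per the file headers, the deposited table gives for each library a normalised signal of each distinct sequence. The submitters' processing notes name TAIR 10; the sources used here do not give the trimming, alignment or normalisation. Each value was a whole multiple (within 0.01 of a read, for 100% of values) of a step equal to 8000000 over a whole number, taken as the library total. Nearly any step of this size would fit that form, so the library totals are inferred. Sequences were matched without mismatch to TAIR10.1, and a sequence belonged to an arm when both ends lay within 4 nt of an annotated mature sequence. Because the signal is not a raw count, limma with trend was fitted to log2(value + 1) for sequences, or sums per miRNA family and arm, with a mean of at least 5. Fold changes are on that scale. Ratios were compared by exact permutation. EdgeR and DESeq2 were run on recovered reads.

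Members and lists were chosen with earlier results of these data known. Named were listed mature sequences, the 10 most abundant, those of a single locus with a mean of at least 20, called sequences and the most abundant of each arm; the remaining members are also given. MIR156e needed no predicted 3p position, since it had 0 listed sequences outside 5p. Replicate libraries all differed by more than sampling noise (chi-square over degrees of freedom from 7.57 to 45.7). Alternatives were pseudocounts, filters, scalings, count tests, a replicate block, stricter arm ends, unique matches and libraries left out. Structures were predicted with RNAfold 2.7.2, tables were handled in Python 3.11.15 (pandas 2.3.3, numpy 2.4.6; figures with matplotlib 3.10.9), and fits were made in R 4.3.3 with DESeq2 1.42.0, edgeR 4.0.16 and limma 3.58.1.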

Additional observations from a re-analysis of the deposited data

How the results depend on the processing

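The counts of called miR156 and age-pathway sequences were 0 under all alternatives run. No alternative brought a sum past the threshold. The exact tests of the ratios could not reach it with this few libraries, so they say nothing about stability; the smallest p, 0.1, was for miR156 to miR172 without WT replicate 2 (exact permutation, difference 0.92). The 3p sum had a log2 fold change of -0.14 with median of ratios scaling, against 0.33. Without WT replicate 1 and rdr1 replicate 1 together, the log2 fold change of the 5p sum was -0.10, the 3p share differed by 1.62 percentage points, the 20-nt share of 5p by -2.43 and the log2 ratio of miR156 to miR157 by -0.085. The cause was not tested. With each library left out in turn, the log2 fold change ranged from 0.07 to 1.05 for the 5p sum and from 0.10 to 0.65 for the 3p sum. The difference (rdr1 minus WT) ranged from -4.86 to 0.345 percentage points for the 3p share, from -1.61 to 2.25 for the 20-nt share, from -2.30 to 2.04 for the annotated 5′ start, from 0.01 to 0.25 for the log2 ratio to miR157 and from 0.36 to 0.92 for that to miR172.

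Libraries of the same replicate number did not deviate together (correlations across sequences of -0.715, -0.301 and -0.529). Those of different numbers had correlations from -0.282 to 0.611. With 3 libraries per genotype, these values cannot decide whether the number pairs libraries. With the replicate number as a block, the log2 fold change was 0.61 for the 5p sum and 0.33 for the 3p sum, both with a limma adjusted p of 0.837, and 0 sequences were called. The 17-nt and 18-nt 5p forms rest on 2 to 64 reads a library and are measured less precisely than the 20-nt form. The same holds for the MIR156d 19-nt 5p form (1 to 39 reads) and the MIR156d 20-nt 3p form (4 to 45). It also holds for the shared 19-nt form that starts 1 nt downstream (8 to 64).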
